A study of Saccharomyces cerevisiae with 16 samples.

Results

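The genes described here encode the small subunit of the mitochondrial ribosome of the budding yeast *Saccharomyces cerevisiae*, and their mRNA, ribosome footprints and translational efficiency were followed in 2 strains with a disrupted eIF3, the multisubunit initiation factor that helps the small ribosomal subunit of the cytosol to recruit mRNA. Members were taken by standard name (*MRPS* or *RSM* with a number, or *MRP1*, *MRP2*, *MRP4*, *MRP10*, *MRP13*, *MRP17*, *MRP21*, *MRP51*, *NAM9*, *PET123*, *SWS2* and *EHD3*), which gave 32 of the 5647 genes in the count tables. Of these, 19 encode proteins with a counterpart in the bacterial ribosome and 13 encode proteins particular to mitochondrial ribosomes. Each of the 4 strains was grown in 2 cultures, and mRNA and footprints of each culture were sequenced, for a total of 16 libraries (8 per background).

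In the *eIF3a/b Degron* background, the WT strain was YAJ3 carrying pRS316 and the mutant was YAJ34, in which eIF3a (*TIF32*) and eIF3b (*PRT1*) are degron fusions (tif32td and prt1td) under the copper-driven *CUP1* promoter. Both strains were gcn2::hisG and carried *UBR1*, the ubiquitin ligase that recognises the degron, under the *GAL1* promoter. Both were moved from raffinose medium with copper at 25 °C to raffinose and galactose medium with the copper chelator BCS at 36 °C for 90 min. In the *eIF3i DDKK* background, the strain H450, deleted for chromosomal *TIF34* and carrying GCN2 at ura3-52, received a plasmid with TIF34-HA (WT) or with TIF34-D207K-D224K-HA (mutant), an eIF3i with 2 substitutions, and its label also lists hc TIF34 URA3. Both of its strains were moved from 30 °C to 37 °C for 30 min in SC medium. Cycloheximide was added to the cultures of all strains shortly before harvest. Strain, medium, temperature and duration differ together between the backgrounds and cannot be told apart. Mutants were therefore set only against the WT of their own background. Libraries came from whole cultures, so a change in every cell and a larger change in some of the cells cannot be told apart.

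The mitochondrial ribosome translates the few mRNAs of the mitochondrial genome, most of which encode membrane subunits of the respiratory chain and of ATP synthase. In yeast its RNAs come from mitochondrial DNA, as does a single small subunit protein, and the other proteins, those of the 32 genes among them, are encoded in the nucleus, made by cytosolic ribosomes and imported. Many of the nuclear mRNAs for this ribosome carry a binding motif of Puf3, an RNA-binding protein of the Pumilio family, after the coding sequence (CDS). Puf3 is known to act on the decay, localization and translation of such mRNAs according to carbon source.

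The motif is shown first because it is a feature that nearly all of the 32 genes share and that the choice by name did not use. The letters TGTANATA, on the coding strand only, were searched in the 200 bases after the stop codon of the RefSeq R64 genome. They were found in 31 of the 32 genes (96.9%), against 819 of the 5450 genes of the tables that matched a RefSeq CDS (15.03%). All 44 genes of the mitochondrial large subunit held the motif and 2 of 57 genes of the cytosolic small subunit did. In 26 of the 32 genes there was 1 match, in 4 genes there were 2, and *RSM19* had 3. The base left free was A in 21 of the 37 matches, T in 9 and C in 7. The first match started 8 to 139 bases after the stop codon, with a median of 55. The windows below belong to genes at both ends of the changes described later, with the matched letters in capitals.
*NAM9*, chrXIV:368525-368548, minus strand, starting 55 bases after the stop codon: ctttacacTGTAAATAtttaattt
*MRP4*, chrVIII:100432-100455, plus strand, starting 37 bases after the stop codon: cctaaactTGTACATAtgcccata
*MRPS9*, chrII:536227-536250, plus strand, starting 139 bases after the stop codon: gttattccTGTAAATAaagttata
*PET123*, chrXV:633223-633246, plus strand, starting 111 bases after the stop codon: tatgcccaTGTATATAcgtcactt
*MRPS35*, chrVII:830215-830238, plus strand, starting 70 bases after the stop codon: ttattactTGTACATAaaatattc
*RSM7*, chrX:638195-638218, minus strand, starting 22 bases after the stop codon: aacttgccTGTACATAaacacatt
*MRPS12*, chrXIV:694272-694295, minus strand, starting 74 bases after the stop codon: caacctttTGTAAATAgcaatgac
*RSM27*, chrVII:922550-922573, plus strand, starting 51 bases after the stop codon: tcatttcaTGTACATAcaaaatca
*MRP17*, chrXI:437041-437064, minus strand, starting 41 bases after the stop codon: caaacacaTGTAAATAcatacata
*MRP10*, chrIV:372583-372606, plus strand, starting 56 bases after the stop codon: catggcctTGTATATAcaaattaa
*NAM9*, with the lowest translational efficiency change in both mutants, and *MRP17*, with one of the highest, hold the same 8 letters with an A at the free position. *MRP10* and *PET123*, also from opposite ends, both have a T there. *RSM22* alone had no match in 200 bases, nor in 300. A match is a description of the letters, and binding was not measured.

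Libraries held 4389212 to 12164617 mRNA reads and 5136423 to 29982592 footprint reads. No member had a count of 0 in any library and the lowest count was 71, so that all 32 passed the filter on low mRNA counts in both backgrounds. The altered genes behaved differently in the 2 backgrounds. *TIF32* footprints were 290 and 303 CPM (counts scaled to library size) in the Degron WT and 109 and 113 CPM in the mutant, whereas its mRNA was 490.0 and 499 CPM and then 622 and 615 CPM. *TIF34*, whose substitutions a count cannot show, had 225 and 294 CPM of mRNA in the DDKK WT and 477 and 460.2 CPM in the mutant. One gene, YDR445C, took 8.79% to 12.3% of the mRNA reads of Degron libraries and 17.4% to 29.9% of those of DDKK libraries, but at most 0.0625% of the footprint reads. *GAL1* mRNA was 10846 and 10501 CPM in the Degron WT and 4236 and 4278 CPM in the mutant, and its part in the other changes was not tested.

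As judged by their median, the 32 genes were well expressed in both WT strains. Levels are given as RPKM, reads per kilobase of counted sequence scaled to library size with TMM (edgeR's correction for library composition), and TE is the log2 ratio of footprint RPKM to mRNA RPKM of one culture. In the Degron WT, the mean mRNA level ran from 43.1 to 150.1 RPKM with a median of 98.0, and the mean footprint level from 39.5 to 722 RPKM with a median of 198. The median member stood at percentile 79.2 of all genes tested for mRNA, 81.1 for footprints and 80.8 for TE. In the DDKK WT these percentiles were 72.5, 73.6 and 74.3. *RSM22*, which encodes a methyltransferase-like subunit, had the lowest WT footprint level in both backgrounds, at 39.5 and 25.9 RPKM. *MRPS12*, which encodes the counterpart of the bacterial decoding-centre protein S12, had the highest in both, at 722 and 472 RPKM. The mRNA of *RSM22* stood at percentile 45.4 of all genes tested in the Degron WT and 35.5 in the DDKK WT. *MRPS5* mRNA stood at 46.8 in the DDKK WT.

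In *eIF3a/b Degron* cells, both the mRNA and the relative TE of the small subunit genes were lower than in WT. The 32 genes together took 0.260% and 0.261% of the mRNA reads in the WT cultures and 0.151% and 0.154% in the mutant cultures. Of the footprint reads they took 0.335% and 0.346% in WT and 0.136% and 0.137% in the mutant. These are shares of a library, and a fall in translation that all mRNAs have in common cannot be seen in them. By edgeR's quasi-likelihood test with Benjamini-Hochberg adjustment over 5306 genes (adjusted p under 0.05, which is what a call means below), TE fell in 28 members and rose in 0, where 33.1% of all genes tested were called lower. The median TE change was −0.79 on the log2 scale for the members and −0.04 for all genes, and in 12 members TE fell by at least 1 log2 unit (8.65% of all genes had such a value). Both mutant cultures lay below both WT cultures in TE for 31 members, with *MRP10* the exception, against 42.9% of all genes. When single cultures were left out, the median TE change stayed between −0.86 and −0.72 for the members and between −0.04 and −0.03 for all genes. With scaling by library size alone the median TE change moved to −0.47 for the members and 0.28 for all genes, so that the distance of 0.75 between them was kept, and changes of gene groups below are to be read against the median of all genes.

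**Figure D1:**
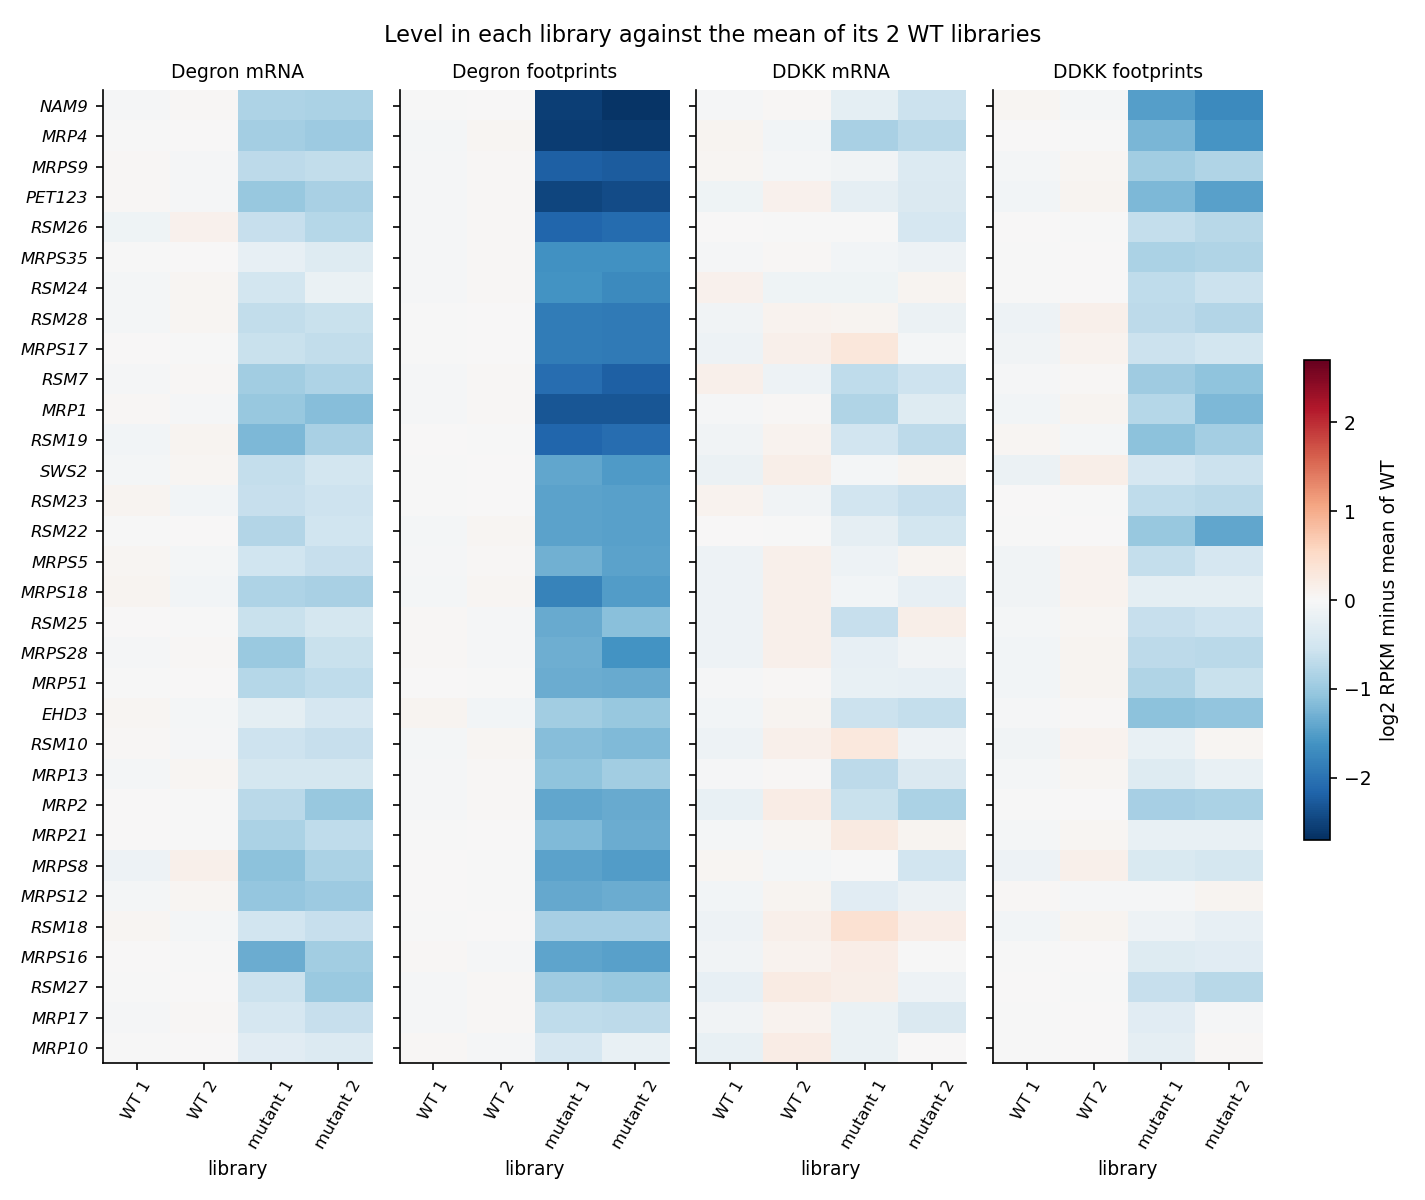
Each row is one of the 32 genes, ordered by the TE change in *eIF3a/b Degron* cells, and each column is a library (WT and mutant cultures 1 and 2, for mRNA and footprints of each background). Colour gives log2 RPKM minus the mean of the 2 WT libraries. The Degron mutant columns are blue in all 32 rows for mRNA. For footprints they are deeper blue (NAM9 footprint change −2.59), except in mutant culture 2 of MRP10. The DDKK mRNA columns are pale and mixed.

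Among the bacterial-type proteins, *NAM9* (uS4, a protein that binds the ribosomal RNA early in assembly) had the lowest TE change. Its mRNA measured 85.1 and 88.7 RPKM in WT and 49.0 and 48.0 RPKM in the mutant. Its footprints measured 163 and 163 RPKM in WT and 28.1 and 26.1 RPKM in the mutant, so that neither readout overlapped between the groups and footprints fell further. The TE change was −1.75 ± 0.11 (log2 ± SE, 2 cultures each; edgeR adjusted p = 1.11e-11). *MRP4* (uS2) had mRNA of 85.6 and 85.8 RPKM in WT and 45.5 and 43.2 RPKM in the mutant, and footprints of 181 and 196 RPKM in WT and 32.1 and 31.7 RPKM in the mutant. The cultures of each group lay close together, and TE fell by 1.62 ± 0.12 (edgeR adjusted p = 1.22e-10). *MRPS9* (uS9) had mRNA of 111 and 106 RPKM in WT and 66.5 and 68.9 RPKM in the mutant, and footprints of 184 and 191 RPKM in WT and 40.4 and 39.7 RPKM in the mutant, a TE change of −1.55 ± 0.12 (edgeR adjusted p = 2.47e-10).

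Of the 19 bacterial-type genes, TE fell in 17, with a median of −0.67. *MRPS17* (uS17), *RSM7* (uS7, a head protein) and *RSM19* (uS19) fell by 1.27, 1.24 and 1.06, and *SWS2* (uS13), *MRPS5* (uS5) and *MRPS18* (uS11) by 0.90, 0.79 and 0.78. Smaller falls were those of *MRPS28* (uS15), *MRP51* (linked in yeast genetics to the leaders of *COX2* and *COX3* mRNAs), *RSM10* (uS10), *MRP2* (uS14), *MRP21* (bS21) and *MRPS8* (uS8), at −0.67, −0.62, −0.59, −0.52, −0.50 and −0.49. *MRPS12* and *RSM18* (bS18) were the smallest that were called, at −0.34 and −0.34. *MRPS16* (bS16) and *MRP17* (bS6) were not called, at −0.31 ± 0.17 and −0.16 ± 0.15.

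Of the 13 genes for proteins particular to mitochondria, TE fell in 11, with a median of −0.85. *PET123*, which was found in yeast genetics through its link to *PET122*, an activator of *COX3* mRNA translation, led them. Its mRNA measured 111 and 108 RPKM in WT and 53.7 and 60.0 RPKM in the mutant and its footprints 204 and 213 RPKM in WT and 37.3 and 38.9 RPKM in the mutant. Both groups were apart in both readouts, and the TE change was −1.50 ± 0.12 (edgeR adjusted p = 4.61e-10). *RSM26* and *MRP1*, which encode related proteins of the superoxide dismutase fold, fell by 1.40 and 1.23. *MRPS35*, *RSM24* and *RSM28*, the last with genetic links to *COX2* translation, fell by 1.35, 1.33 and 1.27. *RSM23* (the homolog of human DAP3), *RSM22*, *RSM25*, *EHD3* (homologous to 3-hydroxyisobutyryl-CoA hydrolases) and *MRP13* had values of −0.85, −0.80, −0.70, −0.62 and −0.52, all called.

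At the other end, *MRP10*, which encodes a small protein with paired cysteine motifs, had a TE change near 0. Its mRNA measured 126 and 127 RPKM in WT and 103 and 98.3 RPKM in the mutant and its footprints 386 and 364 RPKM in WT and 274 and 324 RPKM in the mutant. TE of the cultures was 1.61 and 1.52 in WT and 1.41 and 1.72 in the mutant, which overlap, and the change was 0.00 ± 0.14 (edgeR adjusted p = 0.993). Its mRNA and footprints were nevertheless lower by −0.33 and −0.33, both called. *RSM27*, a mitochondria-specific subunit, had mRNA of 94.5 and 96.3 RPKM in WT and 63.7 and 47.7 RPKM in the mutant and footprints of 407 and 423 RPKM in WT and 212 and 203 RPKM in the mutant. Its mutant mRNA cultures lay apart from each other, and the TE change of −0.22 ± 0.16 was not called (edgeR adjusted p = 0.229). *MRP17* had mRNA of 105 and 108 RPKM in WT and 78.0 and 69.2 RPKM in the mutant and footprints of 165 and 173 RPKM in WT and 105 and 103 RPKM in the mutant. Both fell by similar amounts, −0.53 and −0.69, and both were called.

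**Figure D2:**
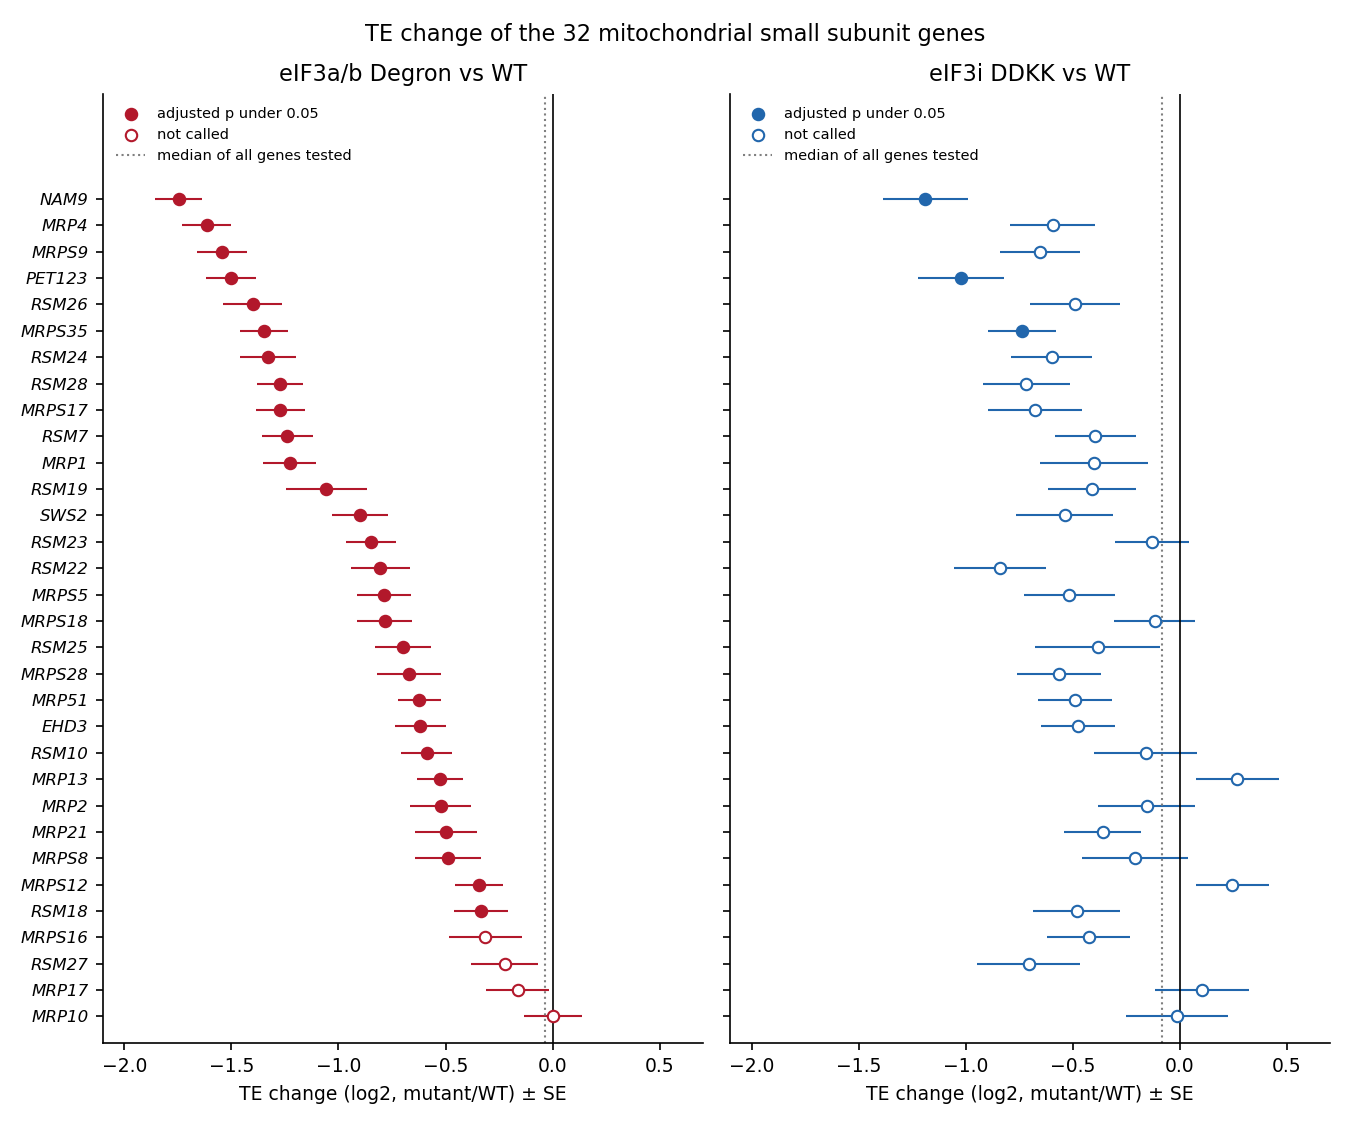
Points give the TE change (log2, mutant over WT) of each of the 32 genes with its SE, for *eIF3a/b Degron* on the left and *eIF3i DDKK* on the right, in the order of the Degron values. Filled points passed the adjusted p of 0.05 (28 on the left and 3 on the right), and the dotted line is the median of all genes tested, −0.04 and −0.08.

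The mRNA of all 32 genes fell in *eIF3a/b Degron* cells, where 30.8% of all genes tested were called lower and 44.3% higher. The median change was −0.69, against 0.12 for all genes, and the range was −1.12 to −0.29. For all 32, both mutant cultures lay below both WT cultures, against 36.2% of all genes. *MRPS16* changed most, with mRNA of 91.5 and 91.4 RPKM in WT and 36.2 and 47.9 RPKM in the mutant (−1.12 ± 0.13, edgeR adjusted p = 4.08e-08). Its footprints measured 326 and 308 RPKM in WT and 119 and 115 RPKM in the mutant, a change of −1.44 ± 0.10. *MRP1* followed, with mRNA of 109 and 106 RPKM in WT and 52.6 and 48.1 RPKM in the mutant (−1.09 ± 0.08, edgeR adjusted p = 1.16e-11), and its footprints were 137 and 142 RPKM in WT and 27.93 and 28.02 RPKM in the mutant. Here mRNA and TE fell together. *RSM19* mRNA measured 100.3 and 110.3 RPKM in WT and 45.1 and 57.7 RPKM in the mutant (−1.04 ± 0.14), with footprints of 388 and 388 RPKM in WT and 87.2 and 93.9 RPKM in the mutant. *MRPS12*, the gene next to *RSM19* on the same strand of chromosome XIV, had mRNA of 130.0 and 140.2 RPKM in WT and 65.5 and 68.9 RPKM in the mutant and footprints of 728 and 716 RPKM in WT and 279 and 287 RPKM in the mutant. The mRNA changes of these neighbours were alike (−1.04 and −1.01), whereas the TE changes were −1.06 and −0.34, a difference that was not tested.

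Footprints, in which both changes add, fell in all 32 genes (41.3% of all genes were called lower and 41.8% higher). At an adjusted p under 0.01, TE was called lower in 26 members (27.1% of all genes), mRNA in 31 (27.5%) and footprints in 32 (38.6%). The median was −1.46, against 0.01 for all genes, and in 27 members footprints fell by at least 1 log2 unit (19.3% of all genes had such a value). In 28 members mRNA, TE and footprints were all called lower, against 13.9% of all genes. The TE change was the more negative of the 2 in 19 members, near the share of all genes (56.6%), and the mRNA change in the other 13. This order depended on the scaling. The member medians were −0.79 for TE and −0.69 for mRNA in the reported fit, but −0.65 and −0.81 with TMM within each assay. *RSM22*, without the motif, had mRNA of 43.1 and 43.2 RPKM in WT and 25.1 and 29.8 RPKM in the mutant and footprints of 38.2 and 40.8 RPKM in WT and 14.4 and 14.3 RPKM in the mutant. Its changes of −0.65 for mRNA and −0.80 for TE lay close to the medians of the 32 genes. Across the 32 genes Spearman's rho of mRNA change with TE change was 0.09 (n = 32 genes that share the same libraries). The mRNA change enters the TE change with the opposite sign, so this rho cannot show whether the 2 are related.

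**Figure D3:**
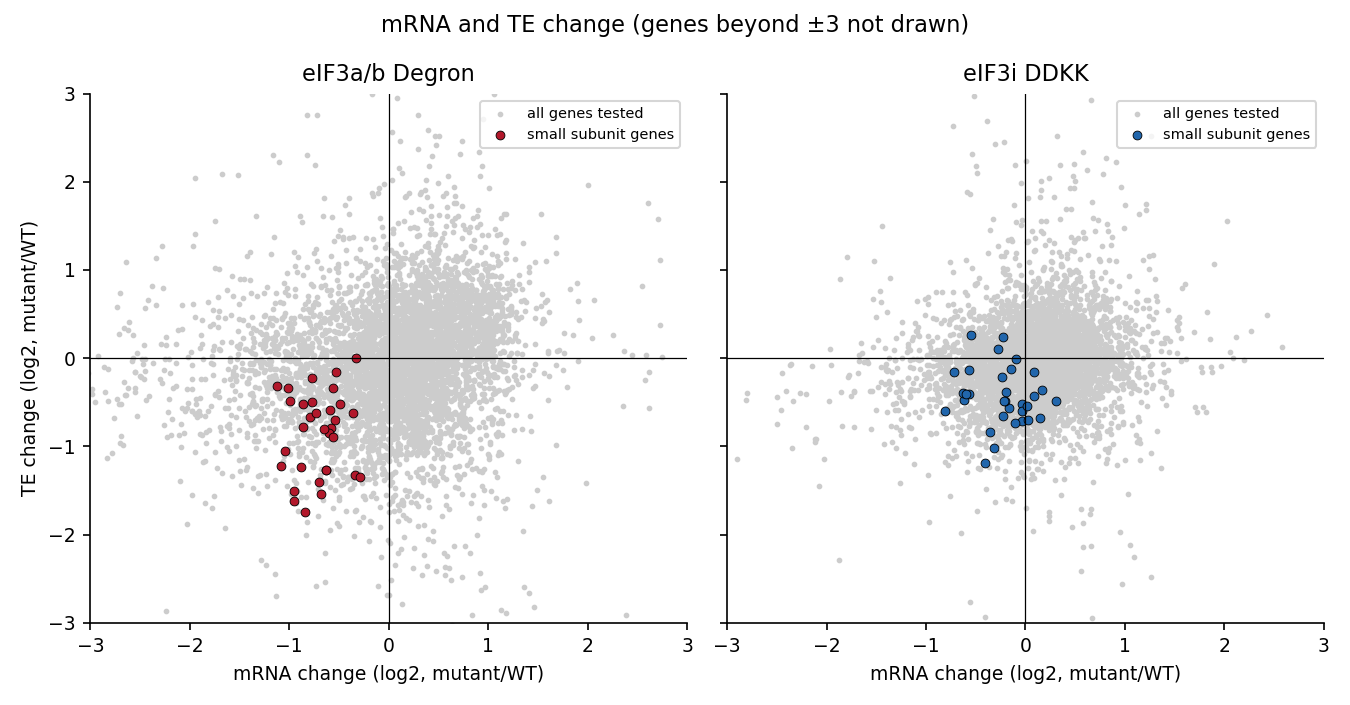
The mRNA change (horizontal, log2) is set against the TE change (vertical, log2) for all genes tested (grey) and the 32 small subunit genes (coloured), with the Degron background on the left and the DDKK background on the right. On the left all 32 genes lie left of 0 and 31 lie below 0. On the right 25 lie left of 0 and 29 below 0.

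In *eIF3i DDKK* cells, the same genes had lower footprints, with smaller changes in TE and mRNA that mostly were not called. The 32 genes took 0.135% and 0.179% of mRNA reads in the WT cultures, an interval that spans that of the mutant cultures (0.138% to 0.154%), and the share of footprint reads was 0.200% to 0.220% in WT and 0.163% to 0.174% in the mutant. YDR445C took 29.9% and 17.4% of the mRNA reads in the WT cultures and 21.2% and 26.1% in the mutant cultures. The mRNA shares of the 32 genes also move with that gene, so their overlap says little about the members. Footprints fell in 23 members and rose in 0, where 26.2% of all genes were called lower, with a median of −0.69 (0.01 for all 5244 genes tested). TE fell in 3 members, *NAM9*, *PET123* and *MRPS35*, where 2.88% of all genes were called lower and 1.14% higher. At an adjusted p under 0.01 these numbers were 0 for TE (0.4% of all genes), 4 for mRNA (5.61%) and 18 for footprints (18.3%). The median TE change was −0.48 against −0.08 for all genes, 29 members lay below 0 (59.1% of all genes) and 17 had an unadjusted p under 0.05 (20.8% of all genes, in either direction). In 23 members both mutant cultures lay below both WT cultures in TE (38.2% of all genes), and in 2 they lay above (1165 of all 5244 genes). In 13 of the 32 members footprints were called lower while neither TE nor mRNA was called, against 13.3% of all genes.

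The TE calls in this background depended on how the cultures entered the model. With each culture as a block, since its mRNA and footprint libraries share a source, TE fell in 14 members, but calls over all genes rose as well, from 2.88% to 12.8%. Without either of the WT cultures it was called in 0 members (0.0381% of all genes in either fit). Without mutant culture 1 it was called in 6 (9.74%) and without mutant culture 2 in 7 (4.18%). With scaling by library size alone it was called in 1 (0.934% of all genes; median −0.34, against 0.05 for all genes). The medians of the members over the fits without 1 culture stayed between −0.50 and −0.42.

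*NAM9* again had the lowest TE change. Its mRNA measured 62.4 and 64.9 RPKM in WT and 52.9 and 42.7 RPKM in the mutant, and its footprints 94.8 and 87.8 RPKM in WT and 32.4 and 27.8 RPKM in the mutant. The groups did not overlap in either, and TE changed by −1.19 ± 0.20 (edgeR adjusted p = 0.0146). *PET123* mRNA measured 67.5 and 79.9 RPKM in WT and 61.9 and 56.1 RPKM in the mutant, and footprints 115 and 127 RPKM in WT and 51.8 and 43.7 RPKM in the mutant. TE changed by −1.02 ± 0.20 (edgeR adjusted p = 0.026), while the mRNA change of −0.32 ± 0.14 was not called.

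*MRPS35*, a mitochondria-specific subunit, changed almost only in footprints. Its mRNA measured 49.7 and 52.0 RPKM in WT and 48.3 and 46.4 RPKM in the mutant, and its footprints 82.9 and 83.7 RPKM in WT and 45.9 and 47.3 RPKM in the mutant. TE changed by −0.74 ± 0.16 (edgeR adjusted p = 0.0364). In the Degron background its mRNA was 70.4 and 71.1 RPKM in WT and 60.3 and 55.3 RPKM in the mutant and its footprints 147 and 153 RPKM in WT and 48.0 and 48.4 RPKM in the mutant, and its mRNA change (−0.29) was the smallest of the 32. *RSM22* had the third lowest TE change in DDKK cells, −0.84 ± 0.21, which missed the threshold (edgeR adjusted p = 0.0599). Its mRNA was 30.7 and 30.1 RPKM in WT and 25.9 and 21.6 RPKM in the mutant and its footprints 25.8 and 25.9 RPKM in WT and 12.7 and 9.79 RPKM in the mutant, apart in both.

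Above 0 in TE were 3 genes, none of them called. *MRP13* had mRNA of 58.4 and 60.4 RPKM in WT and 36.2 and 45.4 RPKM in the mutant and footprints of 84.1 and 91.1 RPKM in WT and 68.4 and 76.1 RPKM in the mutant, with a TE change of 0.27 ± 0.19 (edgeR adjusted p = 0.492) and lower mRNA (−0.55, called). *MRPS12* had mRNA of 111 and 124 RPKM in WT and 95.4 and 105 RPKM in the mutant and footprints of 479.9 and 464 RPKM in WT and 459 and 496 RPKM in the mutant. Its footprint groups overlapped, and the TE change was 0.25 ± 0.17. *MRP17* had mRNA of 72.1 and 83.3 RPKM in WT and 68.7 and 58.9 RPKM in the mutant and footprints of 116 and 119 RPKM in WT and 94.3 and 114 RPKM in the mutant, with a TE change of 0.10 ± 0.22. *MRP10*, near 0 in the other background as well, was at −0.01 ± 0.24, and *RSM27* at −0.71 ± 0.24. The remaining members lay between −0.72 (*RSM28*) and −0.12 (*MRPS18*).

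The mRNA of 8 members fell in *eIF3i DDKK* cells, where 12.0% of all genes were called lower and 16.5% higher. They were *MRP4*, *MRP2*, *RSM7*, *EHD3*, *RSM19*, *RSM23*, *MRP1* and *MRP13*. The median over the 32 was −0.21 and that of all genes 0.11. *MRP4* led, with mRNA of 69.1 and 61.9 RPKM in WT and 35.5 and 39.4 RPKM in the mutant (−0.81 ± 0.14, edgeR adjusted p = 0.00376) and footprints of 104 and 103 RPKM in WT and 43.6 and 34.5 RPKM in the mutant. *MRP2* had mRNA of 78.0 and 102 RPKM in WT and 58.7 and 49.5 RPKM in the mutant (−0.72 ± 0.17, edgeR adjusted p = 0.0134), and its WT cultures differed from each other by about as much as the lower of them did from the mutant. *RSM7* had mRNA of 82.9 and 68.9 RPKM in WT and 47.3 and 51.3 RPKM in the mutant (−0.63 ± 0.14, edgeR adjusted p = 0.00949). Without either WT culture no mRNA call of a member was left (1.96% and 2.92% of all genes were called lower), and with scaling by library size alone 1 was (5.78% of all genes; median −0.05, against 0.28 for all genes).

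The size of the TE change was also compared between the backgrounds, in one fit of all 16 libraries. The Degron change was the more negative in 27 of 32 members (45.4% of all genes), and the difference was called in 3, *MRP4*, *MRPS9* and *RSM7*, where 1.78% of all 5228 genes were called in this direction and 1.89% in the other. For *MRP4* the difference (Degron minus DDKK) was −0.99 ± 0.22 (edgeR adjusted p = 0.0216), for *MRPS9* −0.86 ± 0.19 (edgeR adjusted p = 0.0252) and for *RSM7* −0.82 ± 0.21 (edgeR adjusted p = 0.0437). *NAM9* and *PET123*, called in both backgrounds, differed by −0.53 ± 0.21 and −0.45 ± 0.22, not called. *RSM27* lay furthest the other way, at 0.52 ± 0.29 (edgeR adjusted p = 0.338). At an adjusted p under 0.01 none was called (0.249% of all genes). The number called was 0 without any single Degron culture and without DDKK WT culture 1, fits in which 0.0383% to 0.0956% of all genes were called. It was 1 without DDKK WT culture 2 (0.689%), 6 without DDKK mutant culture 1 (2.75%) and 8 without DDKK mutant culture 2 (6.62%).

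The 2 WT strains differed as well. The mRNA of 18 members was higher in the Degron WT than in the DDKK WT (18.4% of all genes were called higher), and 31 members lay above 0 (53.1% of all genes), with *RSM27* at 0.57 the highest and *RSM19* at −0.28 the lowest. WT TE was higher in 3, *MRP13*, *MRP4* and *MRPS35* (0.61, 0.53 and 0.42), where 2.07% of all genes were called higher and 1.76% lower, and 30 members lay above 0 (57.2% of all genes). With scaling by library size alone 31 members were called for mRNA and 0 for TE, but this scaling moved all genes: 62.2% of them were then called higher for mRNA (median 0.48), and for TE 0.44% were called higher and 17.6% lower (median −0.35). Without Degron WT culture 1 or 2, 5 and 4 members were called for mRNA (9.03% and 9.68% of all genes), and without DDKK WT culture 1 or 2, 6 and 9 (10.7% and 10.5%). For TE the number was 0 without any 1 of these 4 cultures or either Degron mutant culture (0.344% to 0.842% of all genes), and 20 without either DDKK mutant culture (10.2%). At an adjusted p under 0.01 the numbers were 8 for mRNA (11.0% of all genes) and 0 for TE (0.631%). These strains also differ in medium and temperature, which cannot be told apart from strain.

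The CDS of the members ran from 276 nt (*RSM19*) to 1887 nt (*RSM22*) with a median of 798 nt, shorter than the median of 1242 nt of all genes. Within the 32, longer genes tended to the lower TE change. Spearman's rho of TE change with CDS length was −0.60 in *eIF3a/b Degron* cells and −0.44 in *eIF3i DDKK* cells, against −0.26 and −0.29 over all genes tested with the counted length. All 16 members above the median length were called lower in the Degron background (median −1.25, from −1.75 to −0.52), and 12 of the 16 up to it (median −0.51, from −1.27 to 0.00). In DDKK cells the medians were −0.58 and −0.37, with 3 and 0 called. *RSM19*, the shortest, went against this with a Degron change of −1.06, as did the longest, *RSM22*, at −0.80. Calls also depend on read number, and the split by length was not adjusted for it. In the Degron mutant cultures *MRPS16*, a short gene, held 84 and 106 mRNA reads, and the longer *NAM9* held 521 and 486. The base 3 positions before the start codon was A in 18 of the 32 (60.9% of all genes).

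**Figure D4:**
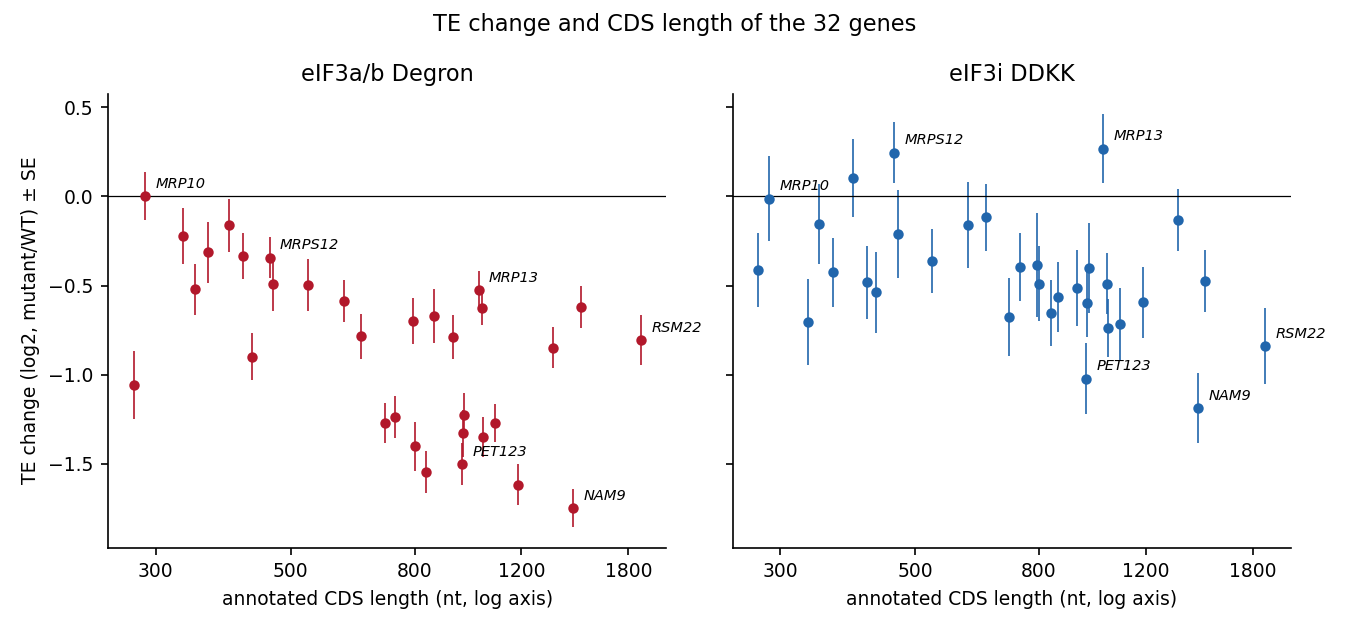
The TE change (log2, mutant over WT, with SE) of each of the 32 genes is set against its annotated CDS length in nt on a log axis, with the Degron background on the left and DDKK on the right. Points tend downwards to the right in both panels (rho −0.60 and −0.44), with a few named genes marked.

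Other genes of mitochondrial and cytosolic translation were counted in the same fits. Of all genes tested in Degron cells, TE was called lower in 33.1% and higher in 26.8%, and mRNA lower in 30.8% and higher in 44.3%. In DDKK cells TE was called lower in 2.88% and footprints in 26.2%. TE is relative to the other mRNAs of a library, so a rise in it need not be a rise in absolute translation. In *eIF3a/b Degron* cells TE fell in 35 of 44 large subunit genes and rose in 1 (median −0.62), and mRNA fell in 43 of 44 (median −0.79). TE fell in 7 of 8 genes for mitochondrial translation factors (median −1.01), and in 8 of 13 genes for activators of single mitochondrial mRNAs, with 1 higher (median −0.62). Of the 57 cytosolic small subunit genes, TE fell in 2 and rose in 39 (median 0.31), and mRNA rose in all 57 (median 1.04). In *eIF3i DDKK* cells TE fell in 2 of 44 large subunit genes (median −0.32), in 1 of 8 factors, in 0 of 13 activators and in 0 of 57 cytosolic genes, whereas footprints fell in 32 of the 44 large subunit genes. Whether the small subunit differed from the large was not tested.

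Genes that hold the motif but encode neither mitochondrial subunit were less uniform. In the Degron background, TE fell in 309 of 730 such genes (42.3%, median −0.20) and mRNA in 331 (45.3%, median −0.14). Among 4459 genes without the motif, TE fell in 1380 (30.9%, median 0.00) and mRNA in 1227 (27.5%, median 0.17). In the DDKK background the TE medians were −0.13 and −0.07. *PUF3* itself, which is no member, had a TE change of −1.53 ± 0.10 (edgeR adjusted p = 1.87e-11) and an mRNA change of −0.15 in Degron cells, and a TE change of −0.58 ± 0.24 (edgeR adjusted p = 0.21) in DDKK cells. The groups by motif were added after the values of the members were known, and the part of the motif in any change was not tested.

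**Figure D5:**
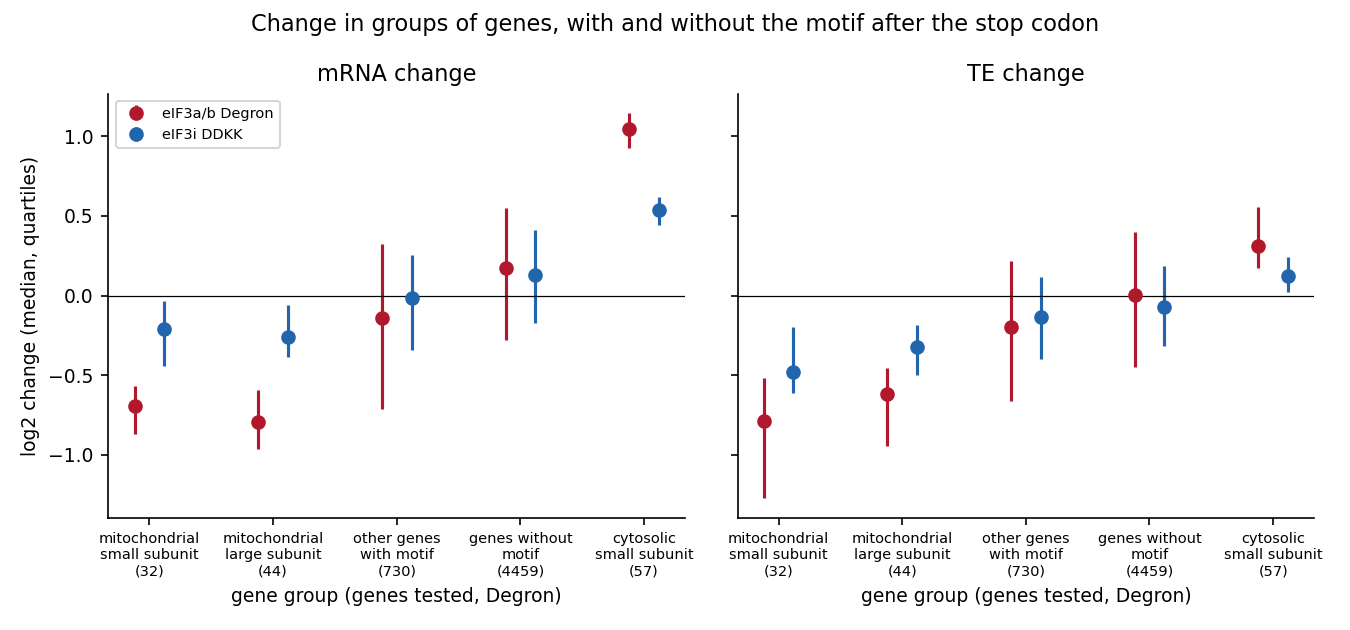
Points give the median log2 change (mutant over WT) of mRNA (left) and TE (right) in 5 groups of genes, and bars run from the lower to the upper quartile; red is *eIF3a/b Degron*, blue is *eIF3i DDKK*, and the number of genes tested in the Degron background is in brackets. Both mitochondrial subunits lie below the other genes with the motif in mRNA (−0.69 and −0.79 against −0.14 in Degron cells), and the cytosolic small subunit lies above 0 in both panels.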

How the data were processed

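mRNA and ribosome footprint libraries of 16 samples were analysed, 2 cultures per strain and assay. The authors deposited read counts per gene, without normalization, on coding sequences less the first 15 and last 5 codons, with gene lengths. Their notes name CASAVA 1.8, Bowtie2 2.2.6.0, TopHat2 2.1.0, DESeq2 and sacCer3. A deposited table of log2 TE changes and adjusted p-values was not used.

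Counts were fitted with edgeR 4.0.16 (R 4.3.3; quasi-likelihood, group means, TMM), separately per background, for genes with at least 128 mRNA reads over 4 mRNA libraries. The TE change was taken as the assay-by-genotype interaction. SE is the size of the log2 change over the square root of F. Adjusted p (Benjamini-Hochberg, threshold 0.05) covers all genes tested. Contrasts between backgrounds came from one fit of 16 libraries. The scripts were tested on simulated counts with 200 genes changed in TE. In the Degron setting edgeR called 193 of them in the right direction, with 17 false calls among 210 (median fitted log2 changes 0.96 and −1.06). In the DDKK setting it called 143, with 5 false calls among 148 (medians 1.01 and −1.02). Simulated libraries were drawn independently, whereas the real mRNA and footprint libraries of a culture share a lysate. Figures and sums used Python 3.11.15, pandas 2.3.3, scipy 1.17.1, numpy 2.4.6 and matplotlib 3.10.9.

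Of the table IDs, 5450 matched a RefSeq R64 CDS, and the counted region was 60 nt shorter than the CDS in 5196. No member shared a 28-nt window with another gene or had an intron. *MRP4* overlaps YHL005C, on the other strand, by 2 nt. mRNA and footprint libraries of a culture came from aliquots of its lysate, and their deviations from the group mean correlated at 0.14 and 0.05 (Degron WT, mutant) and 0.30 and 0.47 (DDKK).

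The members and gene lists were chosen with earlier results of these data known. Values in every library are given for the 4 lowest and 3 highest TE changes and the 3 largest mRNA changes of each background, for TE calls shared by both, and for the lowest and highest WT footprint level. *FMT1* and *PET122* of the lists were not analysed here. Alternatives were DESeq2 1.42.0, other scalings and filters, replicate and culture blocks, one fit of 16 libraries, an adjusted p under 0.01 and fits without single cultures, and a scaling without YDR445C added after its share was seen.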

Additional observations from a re-analysis of the deposited data

Results flagged for a closer look

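Among the 32 genes, 3 had a TE change that differed between the 2 backgrounds by the test of the difference itself (edgeR, 16 libraries, adjusted over 5228 genes), each more negative in *eIF3a/b Degron* than in *eIF3i DDKK* cells. Of all genes, 1.78% were called in this direction and 1.89% in the other. The difference was −0.99 for *MRP4*, −0.86 for *MRPS9* and −0.82 for *RSM7*. At an adjusted p under 0.01 none of the 32 was called (0.249% of all genes), and with scaling by library size alone 0 were (0.555%). The calls also depended on which cultures were included, as described above. *MRP4* TE in the DDKK cultures was 0.59 and 0.73 in WT and 0.30 and −0.19 in the mutant, and in the Degron cultures 1.08 and 1.20 in WT and −0.50 and −0.45 in the mutant. *MRPS9* TE in the DDKK cultures was 0.35 and 0.53 in WT and −0.40 and −0.01 in the mutant, and in the Degron cultures 0.73 and 0.85 in WT and −0.72 and −0.80 in the mutant. *RSM7* TE in the DDKK cultures was 0.87 and 1.20 in WT and 0.75 and 0.50 in the mutant, and in the Degron cultures 1.38 and 1.39 in WT and 0.26 and 0.02 in the mutant. The DDKK mutant cultures of *MRP4* and *MRPS9* lay further apart than the Degron mutant cultures did. Groups of 2 cultures are too small for a check of outlying samples.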

How the results depend on the processing

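In *eIF3a/b Degron* cells, alternatives that kept both cultures of each group gave member counts within 1.5 times the reported ones. They called 20 to 28 members lower for TE, 31 to 32 for mRNA and 31 to 32 for footprints. Of all genes, these settings called 17.8% to 34.7%, 27.5% to 36.5% and 33.7% to 41.5% lower. In fits without single cultures, the member medians were −0.86 to −0.72 for TE, −0.71 to −0.66 for mRNA and −1.48 to −1.41 for footprints. Those of all genes were −0.04 to −0.03, 0.12 to 0.14 and 0.00 to 0.01. No TE, mRNA or footprint value of a member that was called changed sign. In *eIF3i DDKK* cells scaling by library size alone left 1 member called for TE (0.934% of all genes). It left 1 for mRNA (5.78%) and 11 for footprints (12.3%). Once YDR445C was left out, the numbers were 1 for TE (1.07%), 5 for mRNA (7.95%) and 16 for footprints. The median footprint change was then −0.38 for the members and 0.31 for all genes. In this setting *RSM18* mRNA (0.47) was called higher, as was the mRNA of 29.7% of all genes. The median mRNA change of all genes was then 0.28. One fit of all 16 libraries gave 7 for TE (6.45%) and 15 for mRNA (21.3%), and an adjusted p under 0.01 gave 0 and 4. The numbers called in this background also depended on the culture left out. In fits without single cultures, the member medians were −0.50 to −0.42 for TE, −0.28 to −0.16 for mRNA and −0.68 to −0.63 for footprints. Those of all genes were −0.09 to −0.06, 0.08 to 0.11 and −0.005 to 0.014. For the difference in TE change between backgrounds (3 reported), DESeq2 gave 5 (2.96%), library size alone 0 (0.555%), TMM within each assay 7 (2.45%), an adjusted p under 0.01 gave 0 and leaving out single cultures 0 to 8. For WT mRNA (18) library size alone gave 31 (62.2%), an adjusted p under 0.01 gave 8 and leaving out cultures 4 to 25, and for WT TE (3) they gave 0, 0 and 0 to 20, while a minimum of 10 counts or no filter gave 1. The causes were not tested.

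Replicate numbers are shared by the strains, but the labels do not say that they mark a common day. Deviations of WT and mutant libraries with the same number correlated at 0.01 (mRNA) and −0.02 (footprints) in Degron and 0.22 and 0.43 in DDKK. With the number as a replicate block, 28 members were called for TE in Degron (33.2% of all genes) and 6 in DDKK (8.28%), 6 for the difference (3.54%) and 12 for WT TE (6.35%), and with the culture as a block 14 for TE in DDKK (12.8%).

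The biological coefficient of variation was 0.12 in DDKK and 0.05 in Degron, and with 2 cultures per group a member that was not called in DDKK is not shown to be the same in mutant and WT. With windows of 100 and 300 bases after the stop codon the motif was found in 28 and 31 of 32 members.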
